A study of Mus musculus with 8 samples.

Results

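Microglia, the resident macrophages of the brain, carry a set of genes that marks their surveying, non-activated state, and 9 of these genes are described here in mouse cerebellum. They are Cx3cr1, P2ry12, Tmem119, Csf1r, Sall1, Siglech, P2ry13, Gpr34 and Olfml3, taken by gene symbol from a written list. No cutoff on their measured values was used, but the list was chosen with earlier results of these data known. All 9 were among the 17700 genes listed, and all 9 were among the 14191 with enough counts to be tested. RNA was sequenced from the cerebellum of 8 C57BL/6JN mice, 1 library per animal, with no treatment, transgene or mutation named beside age. The old group held males of 93 and 83 weeks (old 1 and old 3) and females of 83 and 102 weeks (old 2 and old 4). The young group held 2 males of 19 weeks (young 1 and young 2) and females of 19 and 22 weeks (young 3 and young 4). The title of the study links ageing, the size of expression changes and hydroxymethylation of DNA in gene bodies, and the old and young groups supply its expression data.

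Microglia settle in the brain before birth and are kept there by signalling through the receptor Csf1r, whose ligands are Csf1 and Il34. TGF-beta from the surrounding tissue and transcription factors that include Sall1 hold them in their homeostatic state, and neurons speak to them through the chemokine Cx3cl1 and its receptor Cx3cr1. In settings of damage or of plaque these genes are known to fall while an activated set, with Itgax and Trem2 among its members, comes up. Cerebellar microglia are known to be sparse beside the very many granule neurons, so in whole tissue these transcripts make up a small part of the RNA. These are bulk samples, in which fewer cells of a type and less RNA per cell cannot be told apart.

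All 9 genes had higher fitted levels in old than in young cerebellum, and none of the 9 differences passed the test over all genes. Gpr34, Tmem119 and Cx3cr1 had the largest log2 fold changes, of 0.84 ± 0.24, 0.76 ± 0.24 and 0.68 ± 0.22 (SE), and Sall1 and Siglech the smallest, of 0.19 ± 0.21 and 0.19 ± 0.18. The median of the 9 was 0.39, beside -0.01 over all genes tested, and all 9 reached the low-count filter in both age groups. Each was a low to moderate transcript, with 36 to 370 counts in a library.

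The libraries held 6079485 to 7236720 counts, and a gene with 3 counts would read 0.421 to 0.511 CPM (counts per 1000000 of the TMM-scaled library total), which is taken as the floor for counting error only. Summed over the marker list, granule neuron genes stood at 4532 to 7673 CPM and Purkinje cell and Bergmann glia genes at 5214 to 7496 CPM, so markers of the labelled tissue were present in every library. Libraries differed within each age in RNA of other sources. Choroid plexus markers summed to 51.7 CPM in old 3, 63.9 in young 3 and 39.8 in young 4, and to between 311 and 1051 CPM in the other 5 libraries. The 7 liver genes listed summed to 84.2 CPM in old 2, 23.6 in old 3 and 21.2 in young 4, and to between 0.682 and 9.63 CPM in the others.

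The 9 genes lie on 7 chromosomes of the GRCm38 build, and all are annotated as protein-coding in GENCODE M21. P2ry12 at 59216272 to 59262871 and P2ry13 at 59207892 to 59210882 are neighbours on the minus strand of chromosome 3, inside the span of Med12l on the other strand. Olfml3 lies at 103722222 to 103738001 on the same chromosome. Cx3cr1 is annotated on chromosome 9 at 119901616 to 120069879, Tmem119 on chromosome 5 at 113793729 to 113800516, Csf1r on chromosome 18 at 61100598 to 61132149 and Sall1 on chromosome 8 at 89027235 to 89044162. Siglech lies on chromosome 7 at 55768178 to 55778925 and Gpr34 on chromosome X at 13632089 to 13640858, within the span of Cask. All coordinates span the gene from first to last annotated base.

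Shared exon bases could mix reads of 2 genes, because the strand setting of the counting is not given in the sources used here. Of the 5774 exon bases of Csf1r, 873 (15.1%) overlap the 3' end of Hmgxb3 on the other strand. Hmgxb3 itself averaged 37.96 ± 2.64 CPM in old mice and 35.98 ± 2.75 CPM in young mice (SD, n = 4 each). P2ry12 shares 9 exon bases with Med12l, and Cx3cr1 shares 78 with Gm33858. The other 6 members share none with another gene. Med12l, the host of both purinergic receptors, had a log2 fold change of 0.00 ± 0.09 (SE), and Cask, the host of Gpr34, one of -0.11 ± 0.09.

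The RefSeq promoter table (GRCm38.p6, 300 bases per start, 250 of them before it) held 6 of the 9 genes, with 3 starts for Sall1 and 1 for each of the others. These promoters were unlike each other in base composition. GC content was 42.3% for P2ry12 and P2ry13, 50% for Siglech, 54.3% for Cx3cr1 and 58.0% for Olfml3, and the 3 Sall1 starts had 57.3%, 70.0% and 79.7%, beside a median of 52.7% over 32851 promoters. CG pairs numbered 2 for Siglech, 4 for P2ry12, 5 for Cx3cr1, 6 for P2ry13 and 8 for Olfml3, against 18, 27 and 39 at the Sall1 starts and a median of 7 over all promoters. The CG pair is the site of DNA methylation in mammals, and of these 6 genes Sall1 had the most such sites at its starts. The bases before the P2ry13 start and before the most GC-rich Sall1 start are printed to show this contrast, 5′ to 3′ on the minus strand, with capitals for the motifs described after them.
P2ry13 chr3:59210883-59211132: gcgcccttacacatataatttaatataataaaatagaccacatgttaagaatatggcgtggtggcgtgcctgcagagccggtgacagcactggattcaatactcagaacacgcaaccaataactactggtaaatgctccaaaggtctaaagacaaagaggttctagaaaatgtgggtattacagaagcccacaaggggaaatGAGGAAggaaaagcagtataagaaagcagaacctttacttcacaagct
Sall1 chr8:89042863-89043112: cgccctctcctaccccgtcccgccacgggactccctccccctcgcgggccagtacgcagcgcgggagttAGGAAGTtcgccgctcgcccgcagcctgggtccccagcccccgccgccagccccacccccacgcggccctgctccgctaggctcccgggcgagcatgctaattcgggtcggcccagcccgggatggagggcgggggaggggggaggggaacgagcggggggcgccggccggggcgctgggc

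The capitals mark 2 overlapping forms of the core that binds ETS factors, the family of the macrophage lineage factor PU.1. Both were searched on both strands in the 8 promoters of the 6 genes. GAGGAA was found in 2 of the 8, for P2ry13 and Siglech, and in 28.3% of all promoters of the same length. AGGAAGT was found in 2 of the 8, for P2ry12 and 1 Sall1 start, and in 9.35% of all promoters. The motifs share the letters AGGAA. A match of this kind describes letters only.

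Among the chemokine and growth factor receptors, Cx3cr1, the receptor for neuronal fractalkine, had 49.7, 34.5, 31.8 and 56.8 CPM in old 1 to old 4. In young 1 to young 4 it had 22.3, 32.6, 30.8 and 22.0 CPM. Old 1 and old 4 lay well above every young mouse, while old 3 lay just below young 2, so the groups overlapped by 1 mouse. Old mice averaged 43.2 ± 12.02 CPM and young mice 26.96 ± 5.56 CPM (SD, n = 4 each). Its log2 fold change of 0.68 had an adjusted p = 0.287 in the edgeR quasi-likelihood fit, adjusted by the Benjamini-Hochberg method over all genes.

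Csf1r, the receptor that microglia need for survival, had 40.1, 33.5, 31.0 and 58.4 CPM in old 1 to old 4. Young 1 to young 4 had 29.8, 35.6, 36.6 and 25.5 CPM. Old 2 and old 3 lay within the young range, and old 4 stood highest of the 8. The log2 fold change was 0.35 ± 0.20 (SE), with an adjusted p = 0.574 by the same edgeR test. Without old 4 it was 0.12.

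The purinergic receptors P2ry12 and P2ry13 sense ADP, which P2ry12 uses to steer microglial processes to injury. P2ry12 had 24.2, 22.6, 16.4 and 24.0 CPM in old 1 to old 4, and 10.9, 20.2, 20.6 and 14.9 CPM in young 1 to young 4. Of the old mice only old 3 fell within the young range. P2ry13 had 12.996, 8.78, 9.91 and 11.7 CPM in old 1 to old 4, and 5.74, 8.78, 8.69 and 7.02 CPM in young 1 to young 4. Old 2 and young 2 met at the same rounded value and the other old mice lay above every young one. The log2 fold changes were 0.39 ± 0.20 and 0.52 ± 0.20 (SE), at an adjusted p of 0.501 and 0.351 by edgeR, and that of P2ry12 was 0.25 without young 1.

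Gpr34, a receptor for lysophosphatidylserine, was 1 of 2 members whose groups did not overlap. It had 12.4, 13.7, 10.5 and 20.0 CPM in old 1 to old 4, and 5.58, 10.2, 9.71 and 6.17 CPM in young 1 to young 4. The lowest old mouse exceeded the highest young mouse by a small margin, and young 1 and young 4 were far below the rest. Old mice averaged 14.2 ± 4.13 CPM and young mice 7.92 ± 2.37 CPM (SD, n = 4 each). The adjusted p = 0.219 by edgeR was the smallest of the 9.

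Tmem119, a membrane protein that sets microglia apart from other brain macrophages, was the other member without overlap. It had 12.7, 13.4, 12.6 and 22.3 CPM in old 1 to old 4, and 7.91, 10.03, 12.1 and 6.03 CPM in young 1 to young 4. Old 4 was far above the other 3 old mice, which were close together and only just above young 3. Old mice averaged 15.2 ± 4.70 CPM and young mice 9.02 ± 2.63 CPM (SD, n = 4 each). The adjusted p was 0.271 by edgeR, and the log2 fold change was 0.53 without old 4.

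Siglech, a sialic acid-binding lectin of microglia and of plasmacytoid dendritic cells, had 7.54, 8.92, 6.13 and 10.7 CPM in old 1 to old 4. Young 1 to young 4 had 6.20, 7.68, 7.84 and 7.44 CPM. The young mice were close together, and old 3 was the lowest of all 8. Its adjusted p was 0.745 by edgeR, and its log2 fold change was 0.09 without old 4.

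Sall1, the transcription factor of microglial identity, had 25.03, 14.8, 15.6 and 20.7 CPM in old 1 to old 4. Young 1 to young 4 had 13.8, 21.5, 18.9 and 12.5 CPM. Old 2 and old 3 lay below young 2 and young 3, so the groups were interleaved. The adjusted p was 0.776 by edgeR, the largest of the 9, and the log2 fold change of 0.19 was 0.04 without old 1.

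Olfml3, a secreted olfactomedin-like protein, had 25.2, 21.01, 20.8 and 32.8 CPM in old 1 to old 4. Young 1 to young 4 had 18.8, 22.1, 23.5 and 15.4 CPM. Old 1 and old 4 lay above every young mouse and old 2 and old 3 within the young range. The log2 fold change was 0.32 ± 0.18 (SE) at an adjusted p = 0.551 by edgeR, and it was 0.15 without old 4.

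**Figure D1:**
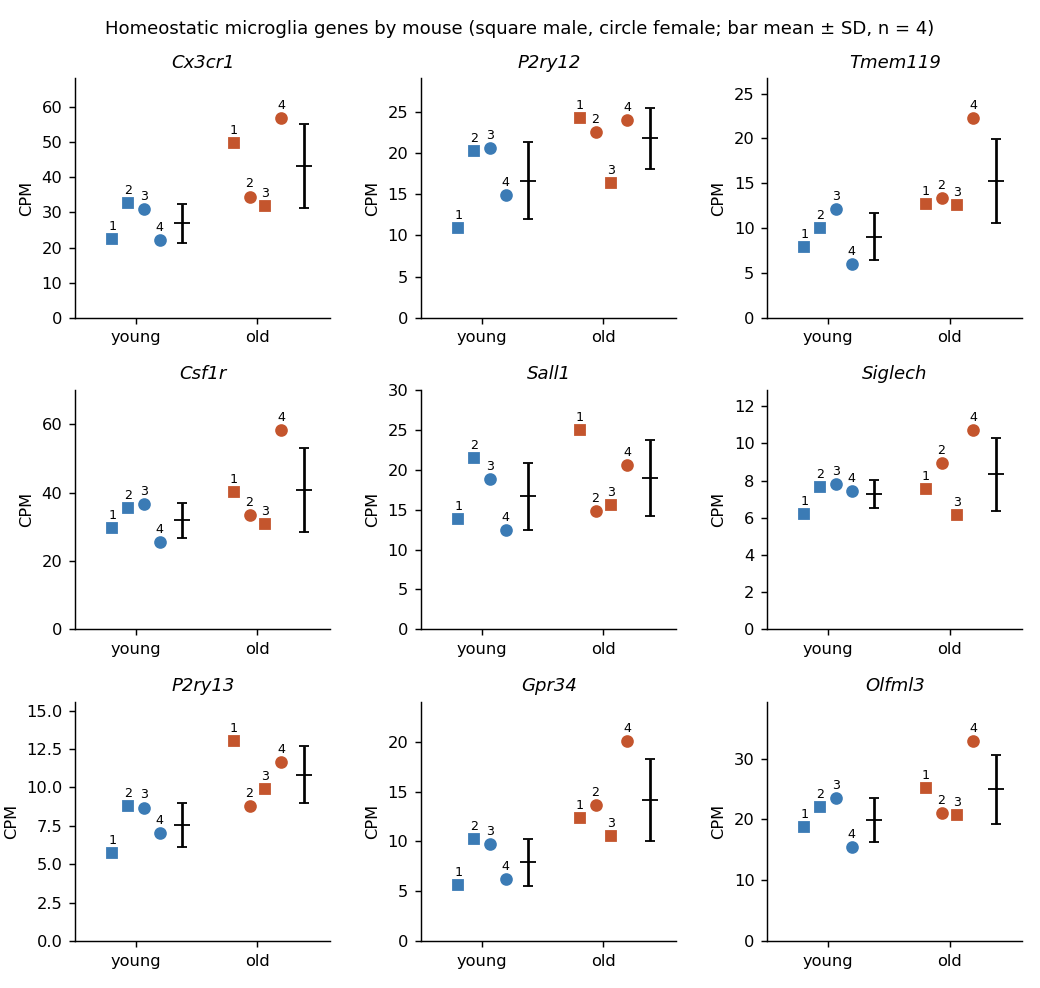
CPM of each of the 9 genes (vertical axis, starting at 0) in the 4 young and 4 old mice, squares for males and circles for females, numbered by replicate, with mean and SD beside each group. Only for Gpr34 and Tmem119 does every old mouse lie above every young one, and old 4 is the highest mouse for 6 of the 9 genes.

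By edgeR's quasi-likelihood test 0 of the 9 genes passed an adjusted p of 0.05, and 4 of them (Gpr34, Tmem119, Cx3cr1 and P2ry13) had an unadjusted p under 0.05. Over all genes tested 0.12% passed in either direction and 0.0987% were higher in old mice, while 5.25% were higher at an unadjusted p under 0.05. DESeq2 and limma-voom also called 0 of the 9. All 4 old values lay above all 4 young values for 2 of the 9 members and for 3.15% of all genes tested. A positive log2 fold change was found for 9 of 9 members and for 48.6% of all genes. The 9 were measured in the same 8 libraries, and the order of the mice was much alike from gene to gene. They are therefore not 9 independent results, and they were chosen with earlier results of these data known. A further fit left out old 2, old 3 and young 4, the libraries richest in liver transcripts. In it 1 of the 9 passed, Cx3cr1 at a log2 fold change of 0.86 ± 0.16 (SE) and an adjusted p = 0.00674 by edgeR. Over all genes 184 of 14404 passed in that fit. The old mice kept in it were old 1 and old 4, which had the highest summed levels of the 9 genes.

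**Figure D2:**
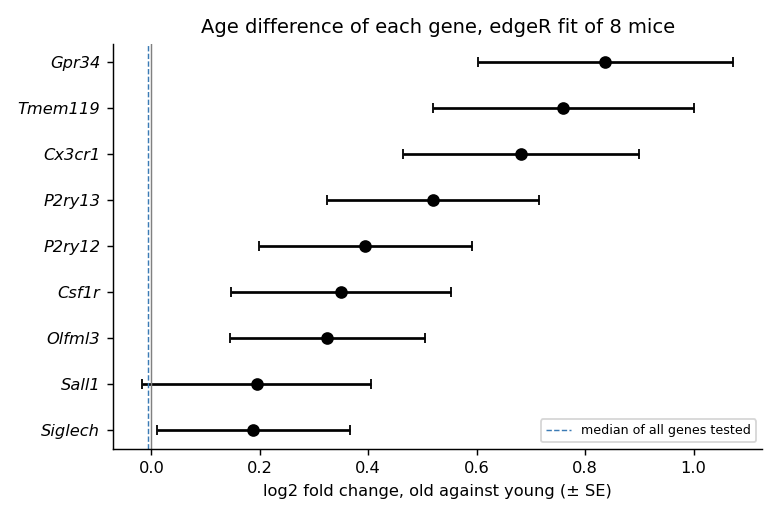
Log2 fold change of old against young mice (horizontal axis) with its standard error for each of the 9 genes, from the fit of 8 mice. All 9 lie to the right of 0, from 0.19 for Siglech to 0.84 for Gpr34, and the dashed line marks the median of all genes tested at -0.01.

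The order of the mice was much alike from gene to gene. Their summed level came to 257 CPM for old 4, 210 CPM for old 1, 171 CPM for old 2 and 155 CPM for old 3. Among young mice it came to 169 CPM for both young 2 and young 3, 121 CPM for young 1 and 117 CPM for young 4. Old 2 and old 3 therefore stood near young 2 and young 3, with old 4 and old 1 above them and young 1 and young 4 below. Old 4, at 102 weeks the oldest mouse, was highest for 6 members, and old 1, at 93 weeks the next oldest, for the other 3. Young 4 was lowest for 5 members, young 1 for 3 and old 3 for 1.

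Granule neuron RNA was lowest in old 4, the mouse highest in the 9 genes, and highest in young 4 and young 1. The granule neuron score, taken as the median over its markers of log2 CPM less the marker's 8-library mean, stood at -0.39 for old 4 and -0.15 for old 1. The libraries lowest in the 9 genes, young 4 and young 1, scored 0.39 and 0.26. Of the other 4, old 2 scored 0.0028, old 3 0.11, young 2 -0.22 and young 3 -0.05, so young 2 stood below old 1. With this score as a covariate the median log2 fold change of the 9 genes was 0.20 in place of 0.39, with Gpr34 at 0.54 ± 0.15, Tmem119 at 0.48 ± 0.17 and Cx3cr1 at 0.41 ± 0.12 (SE), while Sall1 was at -0.034 ± 0.15. None of the 9 passed in that fit, and the part of granule neuron content in the differences was not tested.

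**Figure D3:**
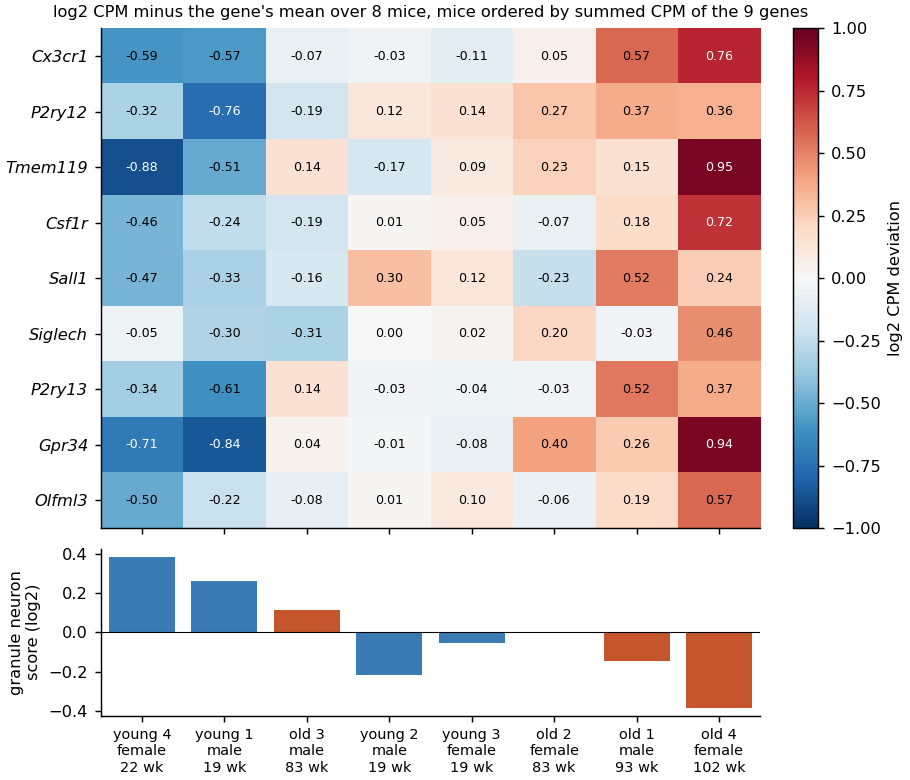
Log2 CPM of each gene minus its mean over the 8 mice (color and number, upper panel), with the mice ordered from the lowest to the highest summed level of the 9 genes, and the granule neuron score of each mouse below. The row of mice runs from young 4, with a score of 0.39, to old 4, with a score of -0.39.

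Within each sex, differences of old and young means on the log2 CPM scale, 2 mice against 2, were positive for 9 of 9 genes in females and 8 of 9 in males. They ran from 0.18 to 1.07 in females and from -0.02 (Siglech) to 0.65 in males. Of all genes tested 0% passed for the interaction of age and sex by edgeR, where 326 had an unadjusted p under 0.05 and DESeq2 called 1. Of the 9 members 0 passed for the interaction and 0 had an unadjusted p under 0.05. The interaction estimates ran from -0.27 to 0.56 on the log2 scale, with SE of 0.36 to 0.49, so differences between the sexes of this size were not detectable with 2 mice in each cell. For sex itself 0 of the 9 passed by edgeR or DESeq2, against 0.0423% of all genes, and 0 had an unadjusted p under 0.05. The female minus male values ran from -0.19 for Sall1 to 0.34 ± 0.18 (SE) for Siglech.

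The balance among the 9 genes was compared by subtracting, in each mouse, the mean log2 CPM of the other 8 genes from that of each gene. Cx3cr1 stood 1.48, 1.14, 1.18 and 1.36 above the other 8 in old 1 to old 4 and 1.08, 1.12, 1.01 and 1.05 above them in young 1 to young 4. Its old and young values did not overlap, by the small margin between old 2 and young 2, and those of the other 8 genes did. The share of all genes without overlap on such a scale was not computed. Gpr34 had the largest shift, from -0.91 ± 0.16 (SD, n = 4) in young to -0.50 ± 0.21 (SD, n = 4) in old mice, and Siglech shifted the other way, from -0.99 ± 0.24 (SD, n = 4) to -1.32 ± 0.22 (SD, n = 4). The shift of Tmem119 was 0.32 and that of Sall1 was -0.30. These relative shifts are descriptions, with no test.

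Per exon length, Cx3cr1 and P2ry12 had the highest levels, at 7.79 ± 2.73 and 7.55 ± 1.87 CPM per kilobase (SD, n = 8). Csf1r followed at 6.29 ± 1.73, Gpr34 at 5.28 ± 2.18 and Tmem119 at 5.24 ± 2.09 CPM per kilobase. Olfml3 had 3.64 ± 0.83, P2ry13 3.64 ± 0.93, Sall1 3.39 ± 0.83 and Siglech 2.31 ± 0.44 CPM per kilobase (SD, n = 8). Every pair of neighbours in this order had overlapping ranges over the 8 mice. Taken mouse by mouse, Tmem119 was above Olfml3 and Sall1 above Siglech in 8 of 8, while Cx3cr1 was above P2ry12, Gpr34 above Tmem119 and Olfml3 above P2ry13 in 4 of 8. These levels rest on the merged exons of all annotated transcripts, so a gene with rarely used exons reads lower.

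Among the ligands and the TGF-beta pathway, none of 13 genes passed edgeR's test in either direction, and their median log2 fold change was 0.18. Csf1 averaged 33.2 ± 6.06 CPM in old mice and 29.3 ± 2.06 CPM in young mice, and Il34, the other ligand of Csf1r, 6.93 ± 0.65 and 8.08 ± 1.76 CPM (SD, n = 4 each). Cx3cl1, the ligand of Cx3cr1, had 79.7 ± 12.4 and 83.7 ± 13.3 CPM. The log2 fold changes of the 3 ligands were 0.18 ± 0.13, -0.21 ± 0.19 and -0.07 ± 0.12 (SE). The TGF-beta receptors Tgfbr1 and Tgfbr2 had 0.51 ± 0.19 and 0.49 ± 0.25, and Nrros, which presents TGF-beta on microglia, had 0.88 ± 0.29. Entpd1, the CD39 enzyme that breaks down ATP and ADP, had 0.55 ± 0.22.

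None of 12 tested microglial transcription factors passed, and their median was 0.38. Runx1, Irf8 and Ikzf1, factors of blood and myeloid cells, had log2 fold changes of 0.97 ± 0.25, 1.03 ± 0.29 and 1.12 ± 0.33 (SE). These were the 3 of smallest p in the list. All 4 old values lay above all 4 young ones for each of them, for 4 of the 12 and for 3.15% of all genes tested. Of the 12, 10 were positive, and Maf and Smad3 had -0.11 ± 0.09 and -0.12 ± 0.13. Of 8 tested purinergic and related receptors none passed. Their median was 0.25, and 0.18 over the 7 that reached the low-count filter in both age groups. Gpr183, an oxysterol receptor, had 0.62 ± 0.23, the UDP receptor P2ry6, which reached the low-count filter in old mice only, had 1.08 ± 0.50 and the ATP-gated channel P2rx7 had 0.36 ± 0.17.

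Other microglial genes are given beside the 9 by the same counts. Of 23 tested microglia-enriched genes outside the 9, 22 were positive and none passed, with a median of 0.78, and 1 of the 23, Tyrobp, reached the low-count filter in old mice only. Trem2, a lipid-sensing receptor, had 1.23 ± 0.23, the protease Ctss 1.24 ± 0.23 and C1qb, a subunit of complement C1q, 1.28 ± 0.25 (SE). Trem2 was named above with the activated set but is counted here, so this list is not free of activation genes. The microglia-enriched list summed to 328 to 611 CPM in old and 235 to 269 CPM in young mice, without overlap. The 9 homeostatic genes summed to 155 to 257 and 117 to 169 CPM, with overlap.

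Of 16 tested activated microglia genes, 4 (Itgax, Cd52, Ccl6 and Lgals3) reached the low-count filter in old mice only, so the filter fixed their direction. The other 12 had positive values, at a median of 0.75, against 1.59 with the 4 included. Itgax, the integrin CD11c, had 4.04 ± 0.53 and Cd52, a leukocyte surface antigen, 2.92 ± 0.42 (SE). They were the 2 of the 16 that passed edgeR's test, beside 0.0987% of all genes tested that passed as higher in old mice. Itgax and Cd52 are among the 4 whose direction the filter fixed. Both averaged less than the floor of 3 counts in young mice, so the sizes of these changes are uncertain. Tlr2, a toll-like receptor, had 1.70 ± 0.31. These lists hold genes that an earlier account of the same libraries had already shown to be higher in old mice, so they are no independent evidence of direction. Whether the lists differ from each other was not tested.

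**Figure D4:**
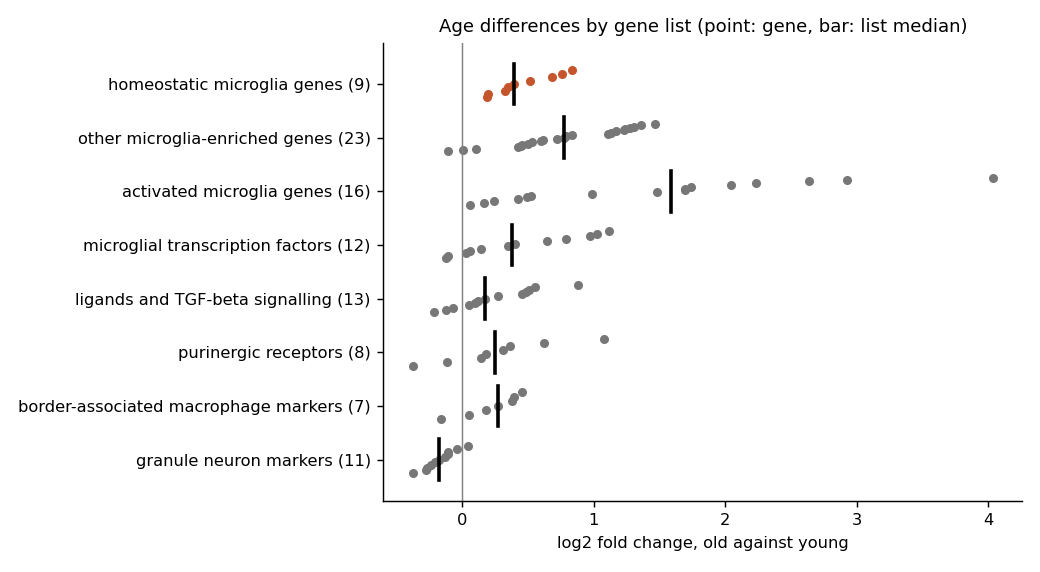
Log2 fold change of old against young mice (horizontal axis) for each tested gene of 8 lists, with the number of genes in brackets and a bar at the list median. The 9 homeostatic genes have a median of 0.39, the other microglia-enriched genes 0.78, the activated genes 1.59 (0.75 without the 4 that reached the low-count filter in old mice only) and the granule neuron markers -0.17.

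Markers of other cells that could carry some of these transcripts moved as follows. Border-associated macrophages, which share Cx3cr1 and Csf1r with microglia, had 7 of 11 markers tested, none past the test, with a median of 0.28. Cd163, F13a1 and Stab1 had log2 fold changes of 0.46 ± 0.27, 0.40 ± 0.29 and 0.38 ± 0.29 (SE). Their list summed to 46.0, 37.4, 41.8 and 81.3 CPM in old 1 to old 4 and 32.7, 43.9, 54.2 and 30.9 CPM in young 1 to young 4, so old 4 was highest and young 4 lowest here too. Markers of monocytes, granulocytes and lymphocytes summed to 25.8 CPM in old 1 and 25.6 in old 4, the mice highest in the 9 genes, and to 2.98 to 8.06 CPM in the other 6. Of these 19 markers 4 were tested and 0 passed. All 4 reached the low-count filter in the old mice only, so the filter fixed their direction, and no median is given for them. The granulocyte genes Ngp, S100a9 and S100a8 averaged 1.30 ± 1.16, 2.21 ± 1.82 and 4.63 ± 4.49 CPM in old mice and 0.155 ± 0.127, 0.291 ± 0.402 and 0.376 ± 0.564 CPM in young mice (SD, n = 4 each). These young means lie below the floor of 3 counts, so the sizes of the differences are uncertain. The part of these blood cell markers in the levels of the 9 genes was not tested.

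Fibroblast markers of meninges and vessels had 9 tested genes, none past the test, with a median of -0.27, and included Dcn at 0.56 ± 0.20, Lum at 0.49 ± 0.19 and Col3a1 at -0.80 ± 0.35 (SE). Over 10 choroid plexus markers, of which 0 passed, the median was 1.25, with Calml4 at 0.87 ± 0.35, Kcnj13 at 1.03 ± 0.58 and Otx2 at 0.35 ± 0.23. Over 11 granule neuron markers, of which 0 passed, the median was -0.17, among them Slc17a7 at -0.37 ± 0.17, Rbfox3 at -0.27 ± 0.15 and Cbln3 at -0.27 ± 0.17. Purkinje cell and Bergmann glia markers had a median of -0.09 over 9 genes, and oligodendrocyte markers -0.17 over 6, with none past the test. Hopx, Itpr1 and Slc1a3 had values of -0.35 ± 0.13, -0.17 ± 0.11 and -0.19 ± 0.12, and Mog, Mag and Cnp had -0.29 ± 0.14, -0.29 ± 0.16 and -0.20 ± 0.12. These were the 3 of smallest p in each list. Of the 9 Purkinje cell and Bergmann glia markers 2 were positive, Pcp2 at 0.17 ± 0.11 and Aqp4 at 0.12 ± 0.09. Of the 6 oligodendrocyte markers 1 was positive, Mbp at 0.01 ± 0.14. Of the liver genes 5 were tested, 0 of which passed. All 5 reached the low-count filter in old mice only, so the filter fixed their direction. Fga, Apoa2 and Apoa1 averaged 2.60 ± 2.94, 2.41 ± 2.66 and 3.30 ± 3.82 CPM in old mice and 0.281 ± 0.561, 0.817 ± 0.699 and 1.16 ± 0.842 CPM in young mice (SD, n = 4 each). The young mean of Fga lies below the floor of 3 counts.

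The genes whose pattern over the 8 mice was most like that of the 9 were found by the root mean square difference between a gene's centred log2 CPM and the mean of the 9. Among 13551 genes, the members and those averaging 1 or more on the log2 CPM scale, the nearest were Celsr1 at 0.07, Pros1 and Lox at 0.09 each, Itpripl2 at 0.09, and Dcn and Cd9 at 0.10 each. Measured against the mean of the other 8, the members themselves were at 0.13 for Olfml3, 0.14 for Csf1r, 0.15 for Cx3cr1, 0.18 for P2ry13 and 0.19 for P2ry12. Sall1 was at 0.25, and Tmem119, Siglech and Gpr34 were at 0.26 each. Olfml3 ranked 24 and Csf1r 39 of 13551, while Gpr34 ranked 768, so genes outside the list came before the first member in this order. The measure favours genes with many counts, and all points share the same 8 libraries.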

How the data were processed

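Per the labels, total RNA of frozen mouse cerebellum went into ribosomal RNA-depleted libraries, 1 per mouse. The authors deposited 1 table of raw counts per gene for each library, per the file headers. Per the submitters' processing notes the tools included STAR 2.7.5b and featureCounts, with Trimmomatic 0.39 and Picard 2.20.8, on GRCm38 (mm10). Which annotation, strand setting and rule for multi-mapped reads they used is not given in the sources used here. The series' design text names liver and other ages, so the labels of each sample were followed for tissue, age and sex. In 7 of the deposited tables, 24 gene names had turned into dates, and rows were matched by position. Libraries of the same age differed by more than sampling noise.

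The low-count filter was filterByExpr (minimum of 10 counts, 4 age-by-sex cells). Counts were fitted in R 4.3.3 with the quasi-likelihood method of edgeR 4.0.16, with TMM scaling, robust dispersions by the newer method and terms for age and sex, adjusted by Benjamini-Hochberg over all genes with a threshold of 0.05. Log2 CPM used a prior count of 2. SE is the size of the log2 fold change divided by root F. The interaction was fitted on cell means. The fit was also run on simulated data, and its power for differences as small as those of the 9 genes is not given here. Alternatives used DESeq2 1.42.0, limma 3.58.1, other filters, covariates, a replicate block and left-out libraries. Named genes were the 9 members, the 3 genes with the smallest p of each list, 5 ligands and receptors, and the 6 genes of most similar pattern. Members and lists were chosen with earlier results of these data known. Coordinates are from GENCODE M21 and promoter sequences from RefSeq (GRCm38.p6). Of the listed activated genes, Clec7a was not analysed here.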

Additional observations from a re-analysis of the deposited data

Results flagged for a closer look

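Tmem119 in old 4, the oldest mouse, stood apart from the other old mice. Its level was 22.3 CPM, with the next old mouse at 13.4 and the lowest at 12.6, so the gap to the nearest mouse was 0.917 of the group's range. Of 20 groups of 4 checked, the 9 genes and their sum at each age, this was the 1 that exceeded the 95% critical value for 4 samples, and chance flags about 1 in 20. Without old 4 the log2 fold change of Tmem119 was 0.53 ± 0.22 (SE) in place of 0.76 ± 0.24, at an adjusted p = 0.476 by edgeR, and over its 20 alternatives it ran from 0.48 to 0.90.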

How the results depend on the processing

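Of the 9 genes, 8 kept a positive log2 fold change in every alternative that tested them, and the log2 fold change of Sall1 was -0.034 when the fit held the granule neuron score as a covariate. The count of the 9 past the threshold for age was 0 in all alternatives but 1, in which old 2, old 3 and young 4 were left out and Cx3cr1 passed (1 gene). The median of the 9 was 0.20 with the granule neuron score and ran from 0.29 without young 4 to 0.57 without young 2. The count over all genes, 17, was 125 by the DESeq2 Wald test, 1 by limma-voom, 26 with the older dispersions, 103 with age in weeks, 0 with the choroid plexus score, 114 with the granule neuron score and 184 without old 2, old 3 and young 4. Leaving out 1 library gave 0 (young 3 or young 4), 2 (old 1 or young 1), 8 (young 2), 13 (old 4), 49 (old 3) and 63 (old 2) for age, and 4 (old 1) to 46 (old 3) in place of 6 for sex. The DESeq2 Wald test called 1 gene for the interaction in place of 0. The cause of these differences was not tested.

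Same-numbered old and young mice had correlations of 0.16, -0.22, -0.05 and -0.25 between their deviations from the group means. Those of differently numbered mice ran from -0.49 to 0.48. No pairing by replicate number was seen, though 4 such values are too few to decide it. With the replicate number as a block 1 gene passed for age, none of the 9 among them.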
